A study of Mus musculus with 12 samples.

Results

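The NuRD complex (nucleosome remodelling and deacetylase) was examined through the transcripts of 10 of its subunits: Chd4, Hdac1, Hdac2, Mbd3, Mta1, Mta2, Mta3, Rbbp4, Gatad2a and Gatad2b. They were chosen by gene symbol from the 53379 genes listed in each library, and all 10 were among the 17884 genes with enough counts to test. RNA came from ZHBTc4 cells, a 129/Ola mouse embryonic stem cell line whose own Pou5f1 alleles are disrupted and whose Oct4 protein is made from a transgene that doxycycline represses. The 6 groups of 2 libraries each were: Phf6 KO and WT cells given doxycycline for 2 days (labels and protocol text give its dose as 0.5 µg/ml and as 0.5 mg/ml), Phf6 KO and WT cells given all-trans retinoic acid for 4 days without leukemia inhibitory factor, and untreated Phf6 KO and WT cells. Both genotypes thus carry the Pou5f1 disruption and the transgene, and withdrawal of leukemia inhibitory factor goes with retinoic acid. The number of KO clones is not given in the sources used here, nor whether each replicate was a culture of its own. The p-values therefore cover only the spread between these libraries, which may be technical.

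NuRD joins chromatin remodelling to histone deacetylation in a single complex. Chd4 is the ATPase that moves nucleosomes, Hdac1 and Hdac2 remove acetyl groups from histones, the Mta proteins hold the deacetylases, Rbbp4 binds histones, Mbd3 or its paralog Mbd2 bridges the parts, and Gatad2a or Gatad2b links them to Chd4. In mouse embryonic stem cells the Mbd3 form of the complex is known to dampen pluripotency genes and to be needed for cells to leave self-renewal. Phf6, the gene deleted here, encodes a nuclear protein whose human counterpart has been reported to bind NuRD through Rbbp4.

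The libraries held 15799517 to 21441996 counts. Phf6 had 7.38 and 8.19 CPM (counts scaled to library size with TMM in edgeR) in KO cells with doxycycline, 5.90 and 5.96 in KO cells with retinoic acid, and 4.49 and 6.50 in untreated KO cells. WT libraries had 29.9 to 42.8 CPM. Pou5f1 stood at 13.0 and 14.3 CPM in KO cells with doxycycline and at 34.0 and 46.3 CPM in WT cells with doxycycline, and at 973 CPM or more in the other 8 libraries. The 7 embryonic stem cell markers summed to 348 to 472 CPM with doxycycline and 1705 to 2759 CPM with retinoic acid, against 6792 to 7606 CPM in untreated cells. All 7 trophectoderm markers were at 1 CPM or more in both doxycycline groups, where they summed to 1566 to 1674 CPM in KO cells and 2507 to 2857 CPM in WT cells. Cells had been on fibroblast feeders in their first passages. The 8 fibroblast markers summed to 24.1 to 73.7 CPM, with Lum and Dcn under 1 CPM in every group. In bulk RNA, fewer cells of a type and less RNA per cell cannot be told apart.

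Per unit of length, the subunits differed several-fold in level, and members of a paralog family were far from equal. In untreated KO cells Hdac1 averaged 198 ± 5.1 TPM (the deposited level per unit of length, ± SD, n = 2), and in untreated WT cells 203 ± 8.5 TPM. Chd4 averaged 150 ± 9.3 TPM in untreated KO cells and 156 ± 10 TPM in untreated WT cells. Rbbp4, Mbd3 and Hdac2 lay near these levels, between 127 and 174 TPM in both untreated groups. Mta1 and Mta3 stayed between 30.2 and 35.8 TPM there and Gatad2b between 26.1 and 28.1 TPM, the low end of the 10 subunits. Counts were ample for all of them, from 586 reads for Mta3 in its lowest library to 13254 for Chd4 in its highest.

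**Figure D1:**
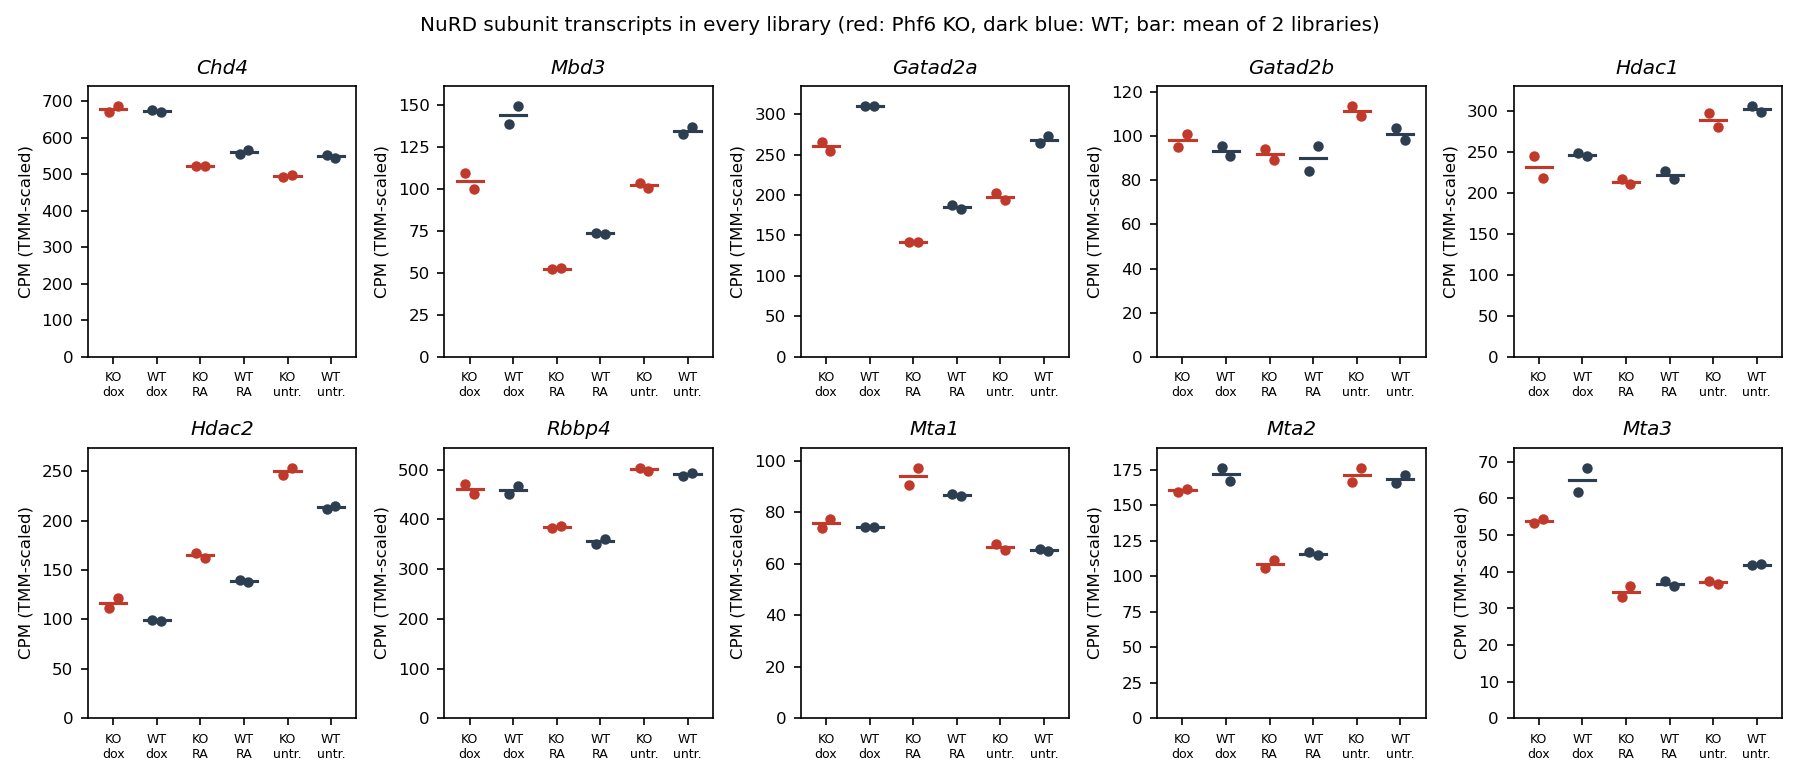
CPM (vertical axis, TMM-scaled, from 0) of each of the 10 NuRD subunits in every library; points are libraries, bars are means of 2 libraries, red is Phf6 KO and dark blue WT. Mbd3 and Gatad2a lie lower and Hdac2 higher in KO than in WT in each of the 3 conditions, with no overlap of libraries. The Hdac1 libraries do not overlap either, KO below WT, although Hdac1 is not called in any of the 3 conditions.

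The subunits Mbd3, Gatad2a and Hdac2 differed between Phf6 KO and WT cells in all 3 conditions. Mbd3 and Gatad2a were lower in KO and Hdac2 was higher. Across all genes tested, 5.89% were lower and 4.02% higher in KO in each of the 3 conditions (edgeR quasi-likelihood test, Benjamini-Hochberg adjusted p under 0.05, as for all calls here). With doxycycline 4 of 10 subunits passed, 1 higher and 3 lower, against 37.0% of all genes (17.9% higher and 19.1% lower). With retinoic acid 3 passed, 1 higher and 2 lower, against 38.8% of all genes (18.8% higher and 20% lower). In untreated cells 4 passed, 1 higher and 3 lower, against 30.0% (15.2% higher and 14.9% lower). Over the mean of the 3 conditions 5 passed, 1 higher and 4 lower, against 47.2% (23.7% higher and 23.5% lower). The count of called subunits is therefore near that of all genes, and the median change of the 10 was -0.06 on the log2 scale over the 3 conditions, beside 0.01 for all genes. Markers of other cell types also differed between the genotypes in these libraries, the trophectoderm sum with doxycycline among them. The 5 neural markers summed to 251 to 261 CPM in KO cells and 112 to 117 CPM in WT cells with doxycycline, where Pax6 was under 1 CPM in both. Untreated cells had more, 409 to 411 CPM in KO cells and 423 to 431 CPM in WT cells. The neural sum was thus lower with doxycycline than untreated in both genotypes. The 5 primitive endoderm markers summed to 249 to 263 CPM in KO cells and 148 to 162 CPM in WT cells with retinoic acid. The part of these markers in the subunit values was not tested.

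Mbd3 (ENSMUSG00000035478.14, GRCm38 chromosome 10, 80392539 to 80399550, minus strand), the methyl-CpG-binding-domain scaffold that defines this form of NuRD, was lower in KO cells throughout. Its CPM values were 109 and 99.5 in KO cells with doxycycline, against 139 and 149 in WT cells with doxycycline. With retinoic acid they were 52.1 and 52.8 in KO cells, against 73.7 and 73.2 in WT cells. Untreated KO cells had 103 and 101 CPM, against 133 and 137 CPM in untreated WT cells. Every KO library lay below both WT libraries of its condition. The log2 change was -0.46 ± 0.055 (SE) with doxycycline, -0.49 ± 0.059 with retinoic acid and -0.40 ± 0.055 untreated, with edgeR adjusted p-values of 7.6e-08, 1.3e-07 and 1.8e-06. This amounts to 0.71 to 0.76 of the WT level.

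Gatad2a (ENSMUSG00000036180.15, GRCm38 chromosome 8, 69907076 to 69996384, minus strand) encodes p66-alpha, the zinc finger protein that couples the Mbd protein to Chd4. It had 266 and 254 CPM in KO cells with doxycycline, against 309.9 CPM in both WT libraries with doxycycline. With retinoic acid the values were 142 and 142 CPM in KO cells, against 187 and 182 CPM in WT cells. Untreated KO cells had 202 and 193 CPM and untreated WT cells 264 and 273 CPM. The KO and WT libraries of a condition did not overlap. The log2 change was -0.25 ± 0.047 with doxycycline, -0.38 ± 0.048 with retinoic acid and -0.44 ± 0.047 untreated (edgeR adjusted p = 7.3e-05, 2.4e-07 and 2.8e-08).

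Hdac2 (ENSMUSG00000019777.16, GRCm38 chromosome 10, 36974544 to 37001889, plus strand), a class I deacetylase, was the subunit that was higher in KO cells. It had 112 and 122 CPM in KO cells with doxycycline, against 99.4 and 98.8 CPM in WT cells with doxycycline. With retinoic acid it had 168 and 162 CPM in KO cells, against 140.3 and 138 CPM in WT cells, and untreated KO cells had 246 and 254 CPM against 212 and 215 CPM in untreated WT cells. The libraries again did not overlap. The log2 change was 0.24 ± 0.053, 0.25 ± 0.050 and 0.23 ± 0.049 with doxycycline, with retinoic acid and untreated (edgeR adjusted p = 0.00059, 0.00023 and 0.00069), or 1.17- to 1.19-fold. For the other deacetylase, Hdac1, the KO libraries lay below the WT libraries in each condition as well, with no overlap. How many of all genes are separated in this way was not counted. Hdac1 was not called in any of the 3 conditions (log2 change -0.09 to -0.05). Without the first KO library with doxycycline it was called lower there (-0.18, edgeR adjusted p = 0.011).

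The promoter windows of these 3 genes are shown because they are the subunits that differed in every condition. Each runs from 250 bases before to 50 bases after the annotated start, 5′ to 3′ on the gene's strand (RefSeq, GRCm38.p6; for Gatad2a the upstream of the pair of windows). Capitals mark GC boxes (GGGCGG) and CCAAT boxes (CCAAT), searched on both strands.
Mbd3, chr10:80399482-80399781, minus strand: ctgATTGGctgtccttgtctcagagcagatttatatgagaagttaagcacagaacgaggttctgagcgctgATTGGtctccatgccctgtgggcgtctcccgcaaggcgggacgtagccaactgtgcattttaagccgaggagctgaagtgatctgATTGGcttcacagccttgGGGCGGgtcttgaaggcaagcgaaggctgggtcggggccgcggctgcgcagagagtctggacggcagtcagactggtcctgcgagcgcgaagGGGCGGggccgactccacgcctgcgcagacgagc
Gatad2a, chr8:69996335-69996634, minus strand: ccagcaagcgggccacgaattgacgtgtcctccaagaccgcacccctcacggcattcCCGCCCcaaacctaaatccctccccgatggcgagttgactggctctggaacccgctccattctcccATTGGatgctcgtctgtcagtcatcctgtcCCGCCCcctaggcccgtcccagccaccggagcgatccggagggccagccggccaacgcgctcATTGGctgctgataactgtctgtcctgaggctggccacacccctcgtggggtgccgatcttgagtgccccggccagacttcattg
Hdac2, chr10:36974294-36974593, plus strand: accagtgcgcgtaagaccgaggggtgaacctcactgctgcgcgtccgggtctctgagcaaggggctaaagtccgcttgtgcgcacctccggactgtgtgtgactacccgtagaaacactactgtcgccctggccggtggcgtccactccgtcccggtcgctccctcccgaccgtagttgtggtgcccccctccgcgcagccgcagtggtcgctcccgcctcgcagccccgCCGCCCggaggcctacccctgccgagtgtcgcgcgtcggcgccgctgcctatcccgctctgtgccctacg
The Mbd3 window holds 3 CCAAT and 2 GC boxes, the Gatad2a window 2 of each, and the Hdac2 window 1 GC box and no CCAAT box. All 3 are rich in CpG: 22, 21 and 36 CpG in the windows of Mbd3, Gatad2a and Hdac2, beside a median of 7 over 32851 mouse promoter windows of this length. Of those windows 35.7% hold a GC box and 37.4% a CCAAT box. Among the 8 subunits with a window, 8 hold a GC box and 5 a CCAAT box in any of their windows. These 8 have 11 windows, so subunits are counted per gene and the percentages per window, and the 2 are not alike. The octamer ATGCAAAT, the site that Oct4 binds, is in the window of 1 subunit, Mta2, and in 1.74% of all windows. The AGGTCA motif of retinoic acid receptors is found for 1 subunit, in the Gatad2a window not shown here, and in 16.3% of all windows. E-boxes (CACGTG) and the NRF1 motif were found in 1 and 0 of the 8, beside 7.15% and 0.971% of all windows. A match describes the letters of the window only.

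A further pair, Mta3 and Chd4, passed in 1 condition each. Mta3, an Mta scaffold protein, had 53.3 and 54.4 CPM in KO cells with doxycycline, against 61.7 and 68.4 CPM in WT cells with doxycycline (log2 change -0.28 ± 0.065, edgeR adjusted p = 0.0011). With retinoic acid and untreated its log2 changes were -0.09 ± 0.069 and -0.18 ± 0.072 and did not pass (edgeR adjusted p = 0.31 and 0.064). The untreated value passed with chromosome 1 genes left out of the fit (-0.20, edgeR adjusted p = 0.038) and without the first KO library or either WT library with doxycycline. Without the second WT library with doxycycline, the doxycycline value was -0.20 with an edgeR adjusted p of 0.051. Chd4, the remodelling ATPase, had 492 and 496 CPM in untreated KO cells, against 553 and 544 CPM in untreated WT cells (log2 change -0.15 ± 0.046, edgeR adjusted p = 0.012). That call was lost without the first untreated KO library (adjusted p = 0.062), without the first untreated WT library (adjusted p = 0.058) and with limma on TPM (-0.06, adjusted p = 0.61). With retinoic acid the Chd4 change of -0.10 did not pass (edgeR adjusted p = 0.076), but did without chromosome 1 genes (-0.13, edgeR adjusted p = 0.024) or without either KO library with doxycycline. With doxycycline the Chd4 libraries of the 2 genotypes overlapped, at 671 and 686 CPM in KO cells and 676 and 669 CPM in WT cells.

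The other 5 subunits, Hdac1, Rbbp4, Mta1, Mta2 and Gatad2b, were not called between KO and WT in any condition in this fit. Their log2 changes lay between -0.10 and 0.14. The largest was that of Gatad2b in untreated cells, 0.14 ± 0.060 (edgeR adjusted p = 0.074), the paralog of Gatad2a. Rbbp4, the histone-binding subunit, had a change of 0.01 ± 0.046 with doxycycline, 0.11 ± 0.046 with retinoic acid (edgeR adjusted p = 0.056) and 0.03 ± 0.046 untreated. With retinoic acid it was called higher in KO by DESeq2 (0.13, adjusted p = 0.020), by limma on TPM (0.25, adjusted p = 0.020) and by edgeR with RLE or upper-quartile scaling (adjusted p = 0.025 each). Mta1 was called higher there by edgeR with RLE scaling (0.14, adjusted p = 0.047) or upper-quartile scaling (0.13, adjusted p = 0.049). The strand setting of the counting is not given in the sources used here, and exons of Rbbp4 overlap Sync and Gm26722 on the other strand while those of Gatad2b overlap 4930537H20Rik. Hdac1 and Rbbp4 also had fractional counts in all 12 libraries, since reads shared with similar sequences were divided by model. Values of these 3 genes are uncertain to that extent.

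**Figure D2:**
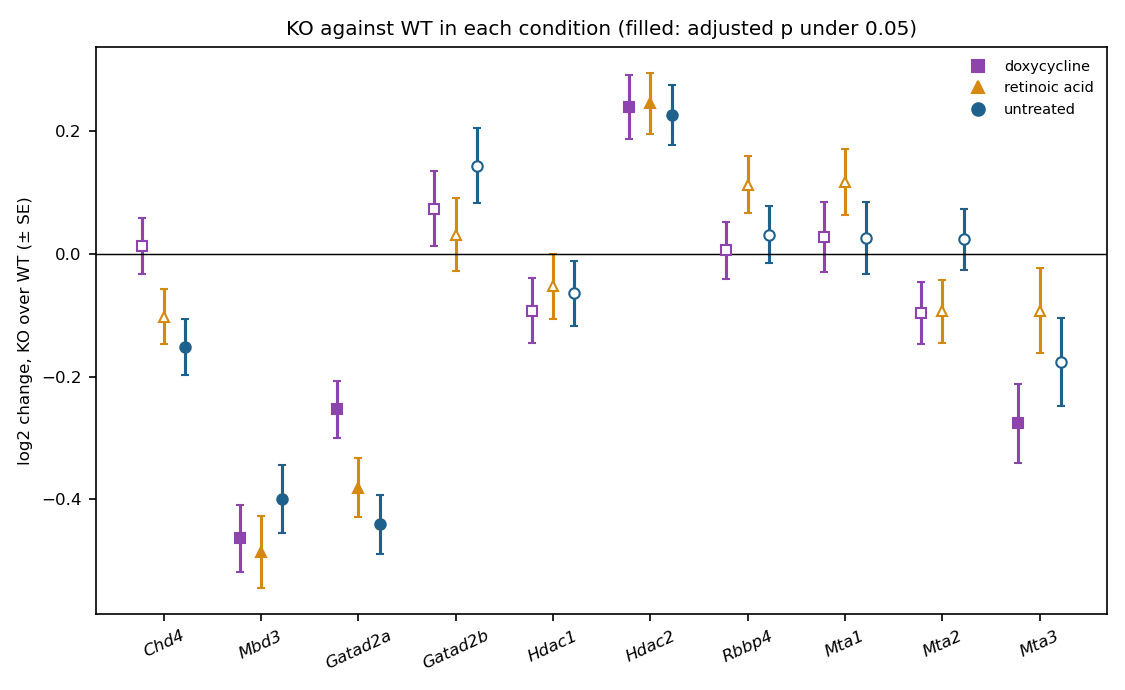
Log2 change of each NuRD subunit in Phf6 KO over WT cells (vertical axis, ± SE) with doxycycline (purple squares), with retinoic acid (orange triangles) and untreated (blue circles); filled symbols have an edgeR adjusted p under 0.05. Mbd3 and Gatad2a are filled and below 0 and Hdac2 is filled and above 0 in all 3 conditions.

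Gatad2a lay in a stretch of chromosome 8 where more than 1 in 2 tested genes were lower in KO. Within 2.5 Mb on either side of its start, 113 other genes were tested, and 78 of them were lower in KO with doxycycline, 77 with retinoic acid and 62 untreated. The median log2 change of these neighbours was -0.50, -0.44 and -0.36 in the same conditions, beside -0.25, -0.38 and -0.44 for Gatad2a itself. In 5-Mb steps, the 30 genes from 65 to 70 Mb and the 97 genes from 70 to 75 Mb had medians of -0.48 and -0.51 with doxycycline, -0.38 and -0.46 with retinoic acid, and -0.40 and -0.37 untreated. From 80 to 85 Mb the medians of 54 genes were 0.04, -0.09 and -0.01. Among 254 such steps with at least 20 tested genes on the autosomes other than chromosome 1, these were the 2 with a median of -0.3 or lower in all 3 conditions. This description was chosen after the values were seen and carries no test.

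The neighbours of Mbd3 had medians close to 0 or above it. Its 152 neighbours within 2.5 Mb had a median log2 change of 0.02 with doxycycline, 0.04 with retinoic acid and 0.14 untreated, beside -0.46, -0.49 and -0.40 for Mbd3. Hdac2 had 9 tested neighbours, with medians of 0.20, 0.20 and 0.12. For the other 7 subunits the medians of the neighbours lay between -0.08 and 0.15 in every condition. No subunit lies on chromosome 1, where the median change of 840 genes was -0.48 with doxycycline, -0.47 with retinoic acid and -0.47 untreated.

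**Figure D3:**
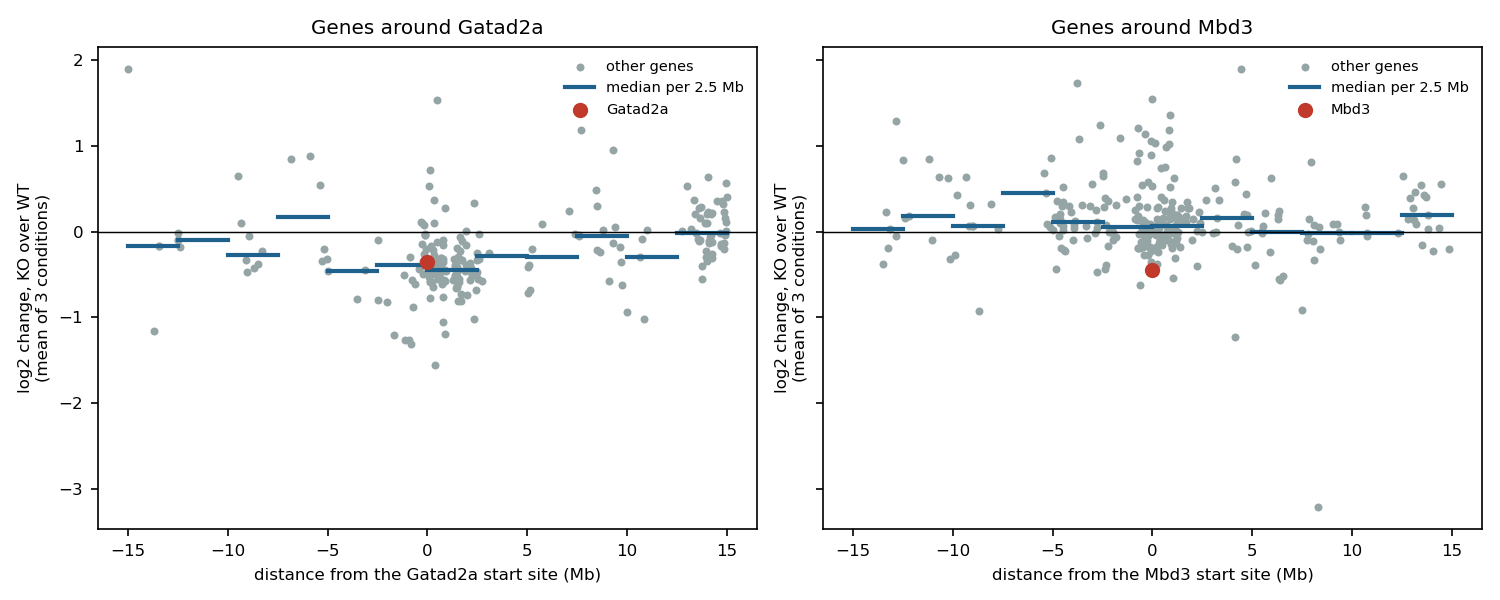
Log2 change in Phf6 KO over WT, averaged over 3 conditions (vertical axis), of each tested gene against its distance in Mb from the start of Gatad2a (left) or Mbd3 (right); grey points are other genes, blue bars are medians per 2.5 Mb, some of them over few genes. The bars next to Gatad2a lie below 0 with Gatad2a among them, and the bars next to Mbd3 lie near 0 with Mbd3 below them.

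With doxycycline, which represses Oct4, Hdac2 and Hdac1 were lower and Chd4, Gatad2a, Mta3 and Mta1 higher in both genotypes. In KO cells 8 of 10 subunits passed, 4 higher and 4 lower, against 62.3% of all genes (31.2% higher and 31.2% lower). In WT cells 6 passed, 4 higher and 2 lower, against 63.0% (31.8% higher and 31.3% lower). The count is near the share of all genes in WT cells and somewhat above it in KO cells. Hdac2 changed most. Its untreated and doxycycline values, given above, do not overlap, and its log2 change was -1.10 ± 0.051 in KO cells and -1.11 ± 0.051 in WT cells (edgeR adjusted p = 3.7e-17 and 4.2e-17), to 0.47 and 0.46 of the untreated level. Hdac1 fell less, with 245 and 218 CPM in KO cells with doxycycline against 298 and 281 CPM in untreated KO cells, and 249 and 245 CPM in WT cells with doxycycline against 306 and 299 CPM in untreated WT cells. Its log2 change was -0.32 ± 0.053 in KO cells and -0.29 ± 0.053 in WT cells (edgeR adjusted p = 5.4e-06 and 1.9e-05).

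Of the 4 subunits that were higher with doxycycline, Chd4 had a log2 change of 0.46 ± 0.046 in KO cells and 0.29 ± 0.045 in WT cells, and Gatad2a one of 0.39 ± 0.047 in KO cells and 0.21 ± 0.047 in WT cells. The log2 change of Mta3 was 0.54 ± 0.069 in KO cells and 0.64 ± 0.067 in WT cells, the highest of the 10, and that of Mta1 was 0.18 ± 0.057 in KO cells and 0.18 ± 0.058 in WT cells. With upper-quartile scaling the Gatad2a change in WT cells was 0.09 and did not pass (edgeR adjusted p = 0.090). All 4 passed in both genotypes as fitted here, with edgeR adjusted p-values from 7.7e-10 to 0.0075. Mta1 was the weakest of them: with upper-quartile scaling its change was 0.13 in KO cells and 0.06 in WT cells, with edgeR adjusted p-values of 0.053 and 0.34, and DESeq2 gave adjusted p-values of 0.054 and 0.088. Its KO value was also lost without the second KO library with doxycycline (adjusted p = 0.056) or the second untreated KO library (adjusted p = 0.076). In KO cells Rbbp4 (-0.12 ± 0.046) and Gatad2b (-0.18 ± 0.060) passed as well, while the differences between the genotypes in these responses did not. In WT cells the Rbbp4 change of -0.10 did not pass in this fit (edgeR adjusted p = 0.074) and was called lower by DESeq2 (-0.13, adjusted p = 0.013). Rbbp4 lost its call without either untreated KO library or the second KO library with doxycycline (edgeR adjusted p = 0.069 to 0.14) and with no filter on low counts (adjusted p = 0.087), and reversed to 0.10 on the TPM scale. Gatad2b lost its call without the first untreated KO library (adjusted p = 0.097) or the first KO library with doxycycline (adjusted p = 0.10), and on the TPM scale (-0.04). In WT cells Gatad2b was called lower only with RLE or upper-quartile scaling (edgeR adjusted p = 0.043 and 0.0022). Mbd3 was not called in either genotype in this fit, at 0.04 ± 0.056 in KO cells and 0.10 ± 0.054 in WT cells (edgeR adjusted p = 0.60 and 0.11). Without the first WT library with doxycycline the WT value of Mbd3 was 0.15. Mta2 was not called in this fit either. It was called lower in KO cells with upper-quartile scaling (-0.15, edgeR adjusted p = 0.012). In WT cells limma on TPM called it higher (0.18, adjusted p = 0.031).

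With retinoic acid the subunits were mostly lower on the count scale, and Mbd3 fell most. In KO cells 8 of 10 passed, 1 higher and 7 lower, against 75.5% of all genes, with 40.9% higher and 34.6% lower. In WT cells 9 passed, 1 higher and 8 lower, against 73.9% of all genes, with 41.0% higher and 32.9% lower. RNA of the retinoic acid libraries went through a further column kit after Trizol that is not given for the others, so kit and treatment cannot be told apart. The scale matters here: the median change over all genes was 0.10 in KO cells and 0.12 in WT cells in these counts, and 0.42 and 0.43 on the TPM scale. Changes relative to that median are therefore given as well, an alternative added after the data were seen.

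The Mbd3 level with retinoic acid was 52.1 and 52.8 CPM in KO cells, against 103 and 101 CPM in untreated KO cells, and 73.7 and 73.2 CPM in WT cells, against 133 and 137 CPM in untreated WT cells. Its log2 change was -0.96 ± 0.059 in KO cells and -0.87 ± 0.056 in WT cells (edgeR adjusted p = 1.3e-14 and 4.0e-14), and -1.06 and -0.99 relative to the median. Mta2, a scaffold of the deacetylase core, had 106 and 111 CPM in KO cells with retinoic acid against 167 and 176 CPM in untreated KO cells, and 117 and 115 CPM in WT cells with retinoic acid against 166 and 171 CPM in untreated WT cells. No treated library of Mbd3 or Mta2 reached an untreated one of its genotype. The Mta2 change was -0.66 ± 0.051 in KO cells and -0.54 ± 0.051 in WT cells.

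Both deacetylases were lower as well, Hdac2 with -0.60 ± 0.049 in KO cells and -0.62 ± 0.050 in WT cells, and Hdac1 with -0.44 ± 0.053 and -0.45 ± 0.052. Gatad2a changed by -0.48 ± 0.048 in KO cells and -0.54 ± 0.047 in WT cells, and Rbbp4 by -0.38 ± 0.046 and -0.46 ± 0.046. On the TPM scale limma did not call Hdac2 in either genotype (-0.08 in KO cells and -0.09 in WT cells), nor Gatad2a (-0.03) and Mta2 (-0.02) in WT cells. There Hdac1 reversed to 0.17 in KO cells and 0.13 in WT cells, and Rbbp4 to 0.28 and 0.05. In KO cells limma called both of these higher on the TPM scale, and Mta3 as well (0.34, adjusted p = 0.0016). Relative to the median of all genes, Hdac1, Hdac2, Mbd3, Mta2, Rbbp4, Gatad2a and Gatad2b stayed below 0 in both genotypes on both scales. Their values were -1.06 to -0.29 on the count scale. Mta3 and Chd4 stayed below 0 as well, with Mta3 at -0.21 in KO cells and -0.31 in WT cells on the count scale. On the TPM scale their changes were positive but under the medians of all genes, 0.42 in KO cells and 0.43 in WT cells. Mta1, an Mta protein known from metastatic tumour cells, was the 1 subunit called higher in these counts. It had 90.5 and 97.3 CPM in KO cells with retinoic acid against 67.8 and 65.5 CPM in untreated KO cells, and 86.9 and 86.1 CPM in WT cells with retinoic acid against 65.8 and 65.1 CPM in untreated WT cells. Its log2 change was 0.49 ± 0.056 and 0.40 ± 0.056 in KO and WT cells (edgeR adjusted p = 6.2e-09 and 2.7e-07). Mta3 (-0.19 ± 0.069) passed in WT cells and Gatad2b in both genotypes (-0.28 ± 0.060 in KO cells and -0.17 ± 0.060 in WT cells). The WT value of Mta3 did not pass without the second WT library with retinoic acid (edgeR adjusted p = 0.078). That of Gatad2b did not pass without the first WT library with retinoic acid (adjusted p = 0.26) or the first untreated WT library (adjusted p = 0.064). On the TPM scale both reversed in WT cells, to 0.23 and 0.19, and Gatad2b in KO cells to 0.04. Chd4 was not called in either genotype, at 0.08 ± 0.046 in KO cells and 0.03 ± 0.045 in WT cells. On the TPM scale Chd4 was called higher in both, with 181 and 182 TPM in KO cells with retinoic acid against 156 and 143 TPM in untreated KO cells, and 205 and 209 TPM in WT cells with retinoic acid against 163 and 149 TPM in untreated WT cells (limma, 0.28 in KO cells with adjusted p = 0.0030 and 0.41 in WT cells with adjusted p = 0.00024). Relative to the median of all genes on the count scale the Chd4 change was -0.02 in KO cells and -0.09 in WT cells.

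**Figure D4:**
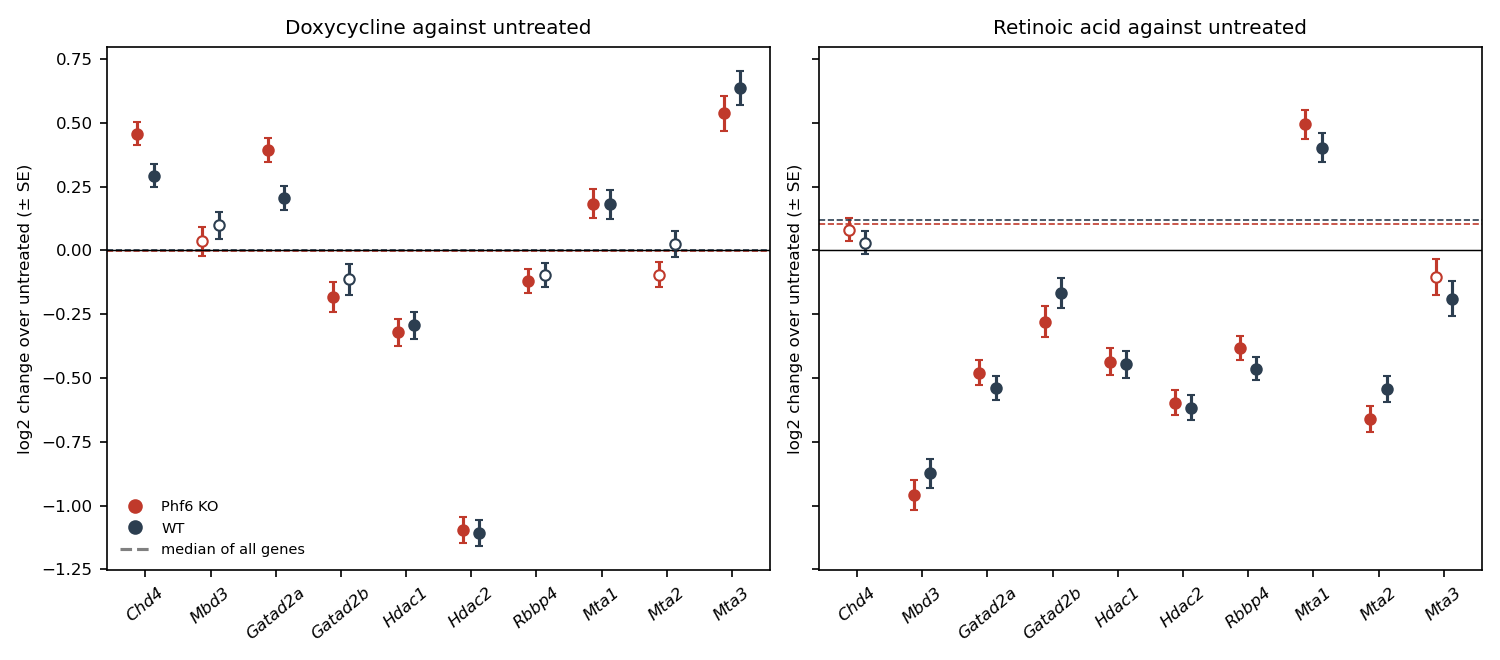
Log2 change over untreated cells (vertical axis, ± SE) of each NuRD subunit with doxycycline (left) and retinoic acid (right), in Phf6 KO (red) and WT (dark blue) cells; filled symbols have an edgeR adjusted p under 0.05 and dashed lines are the median of all genes in each genotype. Hdac2 is lowest with doxycycline and Mbd3 with retinoic acid, and Mta1 is the subunit above the dashed lines with retinoic acid by more than its error.

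The responses of the 2 genotypes were then set against each other. The difference between the KO and WT responses to doxycycline passed for 1 subunit, Gatad2a, against 19.2% of all genes (9.11% higher and 10.0% lower), with a difference of 0.19 ± 0.066 on the log2 scale (edgeR adjusted p = 0.047). Chd4 came next, at 0.17 ± 0.064 (edgeR adjusted p = 0.073), and was the 1 subunit that DESeq2 called (0.18, adjusted p = 0.028). The Gatad2a value lay at the threshold. Its adjusted p was 0.062 without the retinoic acid libraries and ranged from 0.022 to 0.21 when each of the 12 libraries was left out in turn. In 10 of those 12 fits no subunit was called. Without the first KO library with doxycycline, Chd4 was called (0.19) and Gatad2a was not (0.16). Gatad2a kept its call only without the second KO library with doxycycline. For retinoic acid 0 subunits passed in edgeR, against 17.7% of all genes (7.31% higher and 10.3% lower), and 0 had an unadjusted p under 0.05. DESeq2 called 0, and limma on TPM called 0 with 3 at an unadjusted p under 0.05. Differences between the retinoic acid responses lay between -0.12 and 0.09, each with an SE of 0.064 to 0.10.

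Since paralogs such as Mbd3 and Mbd2 take alternative places in NuRD, the share of each paralog in the family's summed TPM was followed within each library. Hdac1 made up 66.1 ± 3.4% (SD, n = 2) of the Hdac1 and Hdac2 sum in KO cells with doxycycline and 71.6 ± 0.17% in WT cells with doxycycline. With retinoic acid its share was 57.5 ± 0.73% in KO cells and 61.9 ± 0.44% in WT cells, and untreated 53.3 ± 1.9% in KO cells and 58.2 ± 0.80% in WT cells. Both KO libraries lay below both WT libraries in each condition, and the doxycycline libraries lay above the others. Differences in shares were not tested.

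The Mbd3 share of the Mbd3 and Mbd2 sum moved most with treatment. It was 71.2 ± 0.71% in KO cells and 68.9 ± 1.2% in WT cells with doxycycline, 53.9 ± 0.61% in KO cells and 62.2 ± 0.55% in WT cells with retinoic acid, and 86.1 ± 3.3% in KO cells and 89.1 ± 0.22% in WT cells untreated. Mbd2, which forms a separate NuRD that binds methylated DNA, rose with both treatments. It had 36.2 and 42.4 CPM in KO cells with doxycycline, 45.8 and 44.8 CPM in KO cells with retinoic acid and 14.7 and 16.7 CPM in untreated KO cells. WT cells had 53.5 and 54.6, 41.6 and 44.0, and 15.3 and 15.3 CPM in the same order. The log2 change with doxycycline was 1.32 ± 0.088 in KO cells and 1.82 ± 0.085 in WT cells, a difference of -0.51 ± 0.13 (edgeR adjusted p = 0.0044). With retinoic acid the Mbd2 change was 1.52 in KO cells and 1.48 in WT cells.

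Gatad2a remained the main p66 transcript, at 82.7 ± 0.58% of the pair in KO cells and 84.4 ± 0.32% in WT cells with doxycycline, 71.4 ± 1.8% in KO cells and 78.5 ± 0.75% in WT cells with retinoic acid, and 75.7 ± 0.11% in KO cells and 81.1 ± 0.81% in WT cells untreated. Rbbp4 was the minor partner of its pair. It held 22.4 ± 0.35% in KO cells and 14.5 ± 1.2% in WT cells with doxycycline, 19.9 ± 0.37% in KO cells and 20.4 ± 1.1% in WT cells with retinoic acid, and 33.3 ± 1.5% in KO cells and 29.7 ± 0.11% in WT cells untreated. Its X-linked paralog Rbbp7 rose with doxycycline by a log2 change of 0.76 ± 0.05 in KO cells and 1.15 ± 0.05 in WT cells. Rbbp7 was lower in KO than in WT with doxycycline (-0.65 ± 0.05) and untreated (-0.26 ± 0.05) and higher with retinoic acid (0.24 ± 0.05), and both responses differed between the genotypes (-0.39 with edgeR adjusted p = 0.00011 and 0.51 with edgeR adjusted p = 2.7e-06). Chd4 held 87.9% to 90.9% of the Chd3, Chd4 and Chd5 sum in every group. Chd3, a paralogous remodelling ATPase, was lower in KO than in WT with retinoic acid (-0.32 ± 0.077, edgeR adjusted p = 0.0015) and untreated (-0.31 ± 0.085, edgeR adjusted p = 0.0070), with a log2 change of -0.03 ± 0.077 under doxycycline that did not pass. Mta1 made up 39.4 ± 0.41% of the Mta sum in KO cells and 35.4 ± 0.47% in WT cells with retinoic acid, and 23.1% to 25.4% in the other 4 groups.

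**Figure D5:**
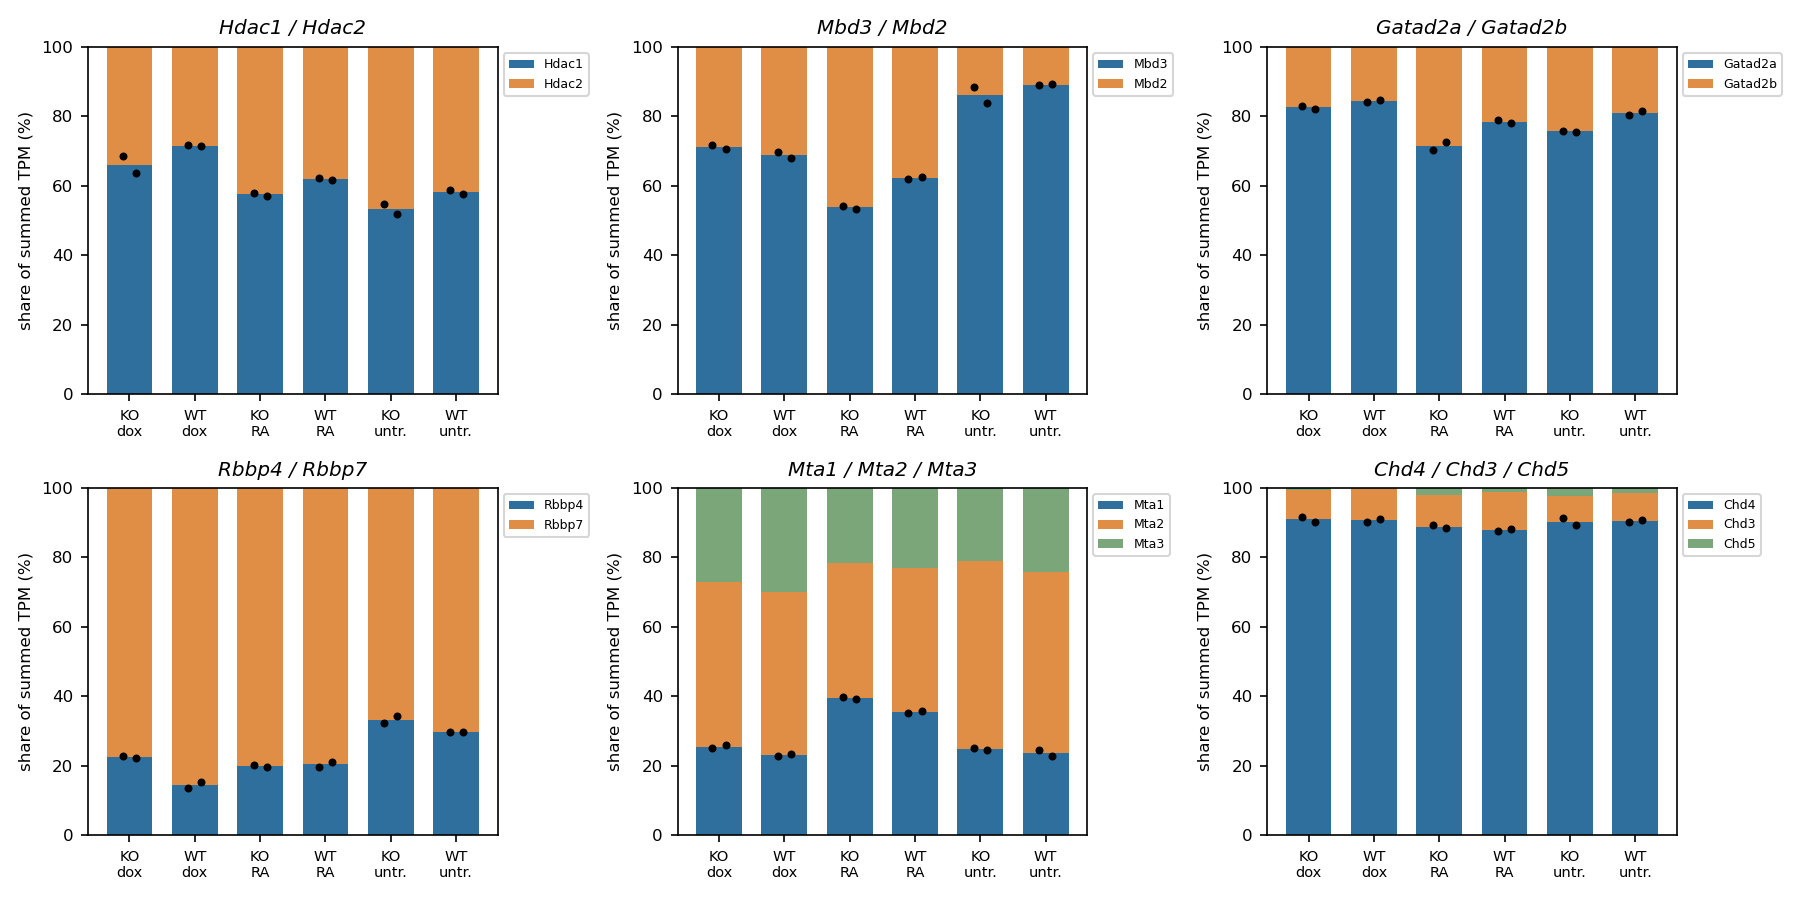
Share of each paralog in the summed TPM of its family (stacked bars from 0 to 100%, mean of 2 libraries) for 6 families in KO and WT cells with doxycycline, with retinoic acid and untreated; black points are the 2 libraries for the lowest segment. The Mbd3 segment is 53.9% and 62.2% in KO and WT cells with retinoic acid, against 86.1% and 89.1% in untreated KO and WT cells, and the Hdac1 segment is tallest with doxycycline.

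Around the core, 11 DNA-binding and reader proteins known to associate with NuRD were followed. With doxycycline 8 of them were lower in KO than in WT and 0 higher, against 19.1% and 17.9% of all genes, with a median log2 change of -0.31 beside 0.00 for all genes. With retinoic acid 2 were higher and 4 lower, against 18.8% and 20% of all genes, and untreated 3 were higher and 2 lower, against 15.2% and 14.9%. Zfp296, a zinc finger partner of NuRD in stem cells, had the largest values: -1.43 ± 0.31 with doxycycline, -1.62 ± 0.10 with retinoic acid and -0.49 ± 0.05 untreated in KO over WT. Its log2 change over untreated cells was -7.83 in KO cells and -6.89 in WT cells with doxycycline, and -4.68 in KO cells and -3.55 in WT cells with retinoic acid. Sall4, a stem cell factor that recruits NuRD, was lower in KO with doxycycline (-0.69 ± 0.05) and retinoic acid (-0.27 ± 0.05), with 0.03 ± 0.05 untreated. Its relative Sall1 was lower in KO with doxycycline (-0.14 ± 0.05) and higher with retinoic acid (0.52 ± 0.05) and untreated (0.38 ± 0.05).

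Other deacetylase complexes that share Hdac1 and Hdac2 with NuRD showed no common direction between the genotypes. Over the mean of the 3 conditions 3 of 14 Sin3 complex genes were higher and 5 lower in KO, 2 of 7 CoREST genes were higher and 2 lower, and 0 of 3 MiDAC genes were higher and 2 lower, against 23.7% higher and 23.5% lower among all genes. Their medians were 0.00, 0.04 and -0.15, beside 0.01 for all genes. Sin3b (-0.58 ± 0.05) led the Sin3 genes and Rcor3 (-0.57 ± 0.06) the CoREST genes; Sin3b starts 2.73 Mb from Gatad2a on chromosome 8, and Rcor3 lies on chromosome 1. Suds3, a Sin3 subunit, was higher (0.38 ± 0.03).

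The 5 pluripotency genes that Mbd3 is known to restrain in stem cells, Klf4, Klf5, Tbx3, Zfp42 and Esrrb, were counted in the same way. With doxycycline 2 were higher and 3 lower in KO than in WT, against 17.9% and 19.1% of all genes. With retinoic acid 1 was higher and 3 lower, against 18.8% and 20%, and untreated 2 were higher and 0 lower, against 15.2% and 14.9%. Klf4 was higher in KO in untreated cells (0.82 ± 0.05) and lower with doxycycline (-0.55 ± 0.08) and with retinoic acid (-1.38 ± 0.06). Klf5 was higher in KO in all 3 conditions, by 0.63 ± 0.05 with doxycycline, 0.24 ± 0.05 with retinoic acid and 0.27 ± 0.04 untreated. Esrrb and Zfp42 were lower in KO with retinoic acid, at -2.19 ± 0.06 and -1.63 ± 0.05. The embryonic stem cell marker sum was 1705 to 1732 CPM in KO cells and 2569 to 2759 CPM in WT cells with retinoic acid. That sum contains Esrrb and Zfp42 themselves, so it is not a separate observation. It also contains Pou5f1, at 976 and 989 CPM in these KO libraries and 973 and 1081 CPM in these WT libraries. The part of these markers in the subunit values was not tested.

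The genes whose log2 CPM followed a subunit most closely over the 12 libraries were sought for the 3 subunits whose highest group mean was at least 2 times the lowest. Among 9956 genes, Hdac2 was followed most closely by Csrp2 and Slc39a14 (Pearson r = 0.99 and 0.99), then by Klf5, Tpst1 and B4galnt4. Mbd3 was followed by Fastkd2, Map1s, Lasp1, Aatf and Sulf2 (r = 0.99 each), and Gatad2a by Ap1m1, Tyw5, Nadk, Tomm40l and Cops5 (r = 0.98 to 0.99). Ap1m1 and Map1s lie 2.25 and 0.92 Mb from the start of Gatad2a, in the stretch of chromosome 8 described above. All these likenesses are descriptions across 12 libraries that share 6 groups.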

How the data were processed

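Total RNA was sequenced in 12 libraries. The submitters' processing notes name STAR 2.5.3a, RSEM 1.3.0, DESeq2 1.18.1 and the build mm10, with no role or order. For the annotation release and the strand setting, nothing is given in the sources used here. The authors deposited an expected count, a TPM value and gene lengths for 53379 genes in each library, per the file headers. Expected counts are model estimates: 9.54% to 11.6% of values per library were not whole, and all were rounded. TPM values were used as deposited for levels between genes and for paralog shares.

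Genes were filtered with filterByExpr (minimum count 10), scaled by TMM (factors 0.90 to 1.16) and fitted over all 12 libraries with 1 term per group by the quasi-likelihood test of edgeR 4.0.16 in R 4.3.3 (6 residual degrees of freedom), with 10 contrasts. P-values were Benjamini-Hochberg adjusted over 17884 genes, with a threshold of 0.05. The SE of a log2 change was taken as its size over the root of edgeR's F value. A count of 0 allows up to 3 counts, or 0.13 to 0.20 CPM, which covers counting error only. No pair of replicates was a copy: chi-square over degrees of freedom was 1.90 to 6.28. In counts simulated for KO against WT with doxycycline (17047 genes), 50 genes were changed at each fold, and all other genes had equal means in all groups. The fit recovered 30% of genes changed 1.25-fold, 72% of those changed 1.5-fold, 70% of those changed 2-fold and 90% of those changed 4-fold. It called 7 of 16852 unchanged genes. In the real contrast 37.0% of genes were called, so these rates need not hold there.

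Positions come from GENCODE M21 (GRCm38), in which 53274 of 53379 identifiers were found. RefSeq promoter windows (GRCm38.p6) matched 8 of the 10 subunits. Alternatives were RLE and upper-quartile scaling, DESeq2 1.42.0, limma 3.58.1 on log2(TPM + 1), no filter, no chromosome 1 genes, a replicate block, no retinoic acid libraries, and leaving out each library in turn. The subunits, lists and tests were chosen with earlier results of these data known. All 10 subunits are named, and from each other list at most the 3 called genes with the largest change, with Mbd2, Rbbp7 and Chd3 always.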

Additional observations from a re-analysis of the deposited data

Results flagged for a closer look

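The doxycycline response of Gatad2a differed between the genotypes by 0.19 on the log2 scale, larger in KO than in WT cells, by a test of the difference itself in edgeR (adjusted p = 0.047; 0.022 to 0.21 with each library left out in turn). KO cells had 266 and 254 CPM with doxycycline against 202 and 193 CPM untreated, and WT cells had 309.9 and 309.9 CPM with doxycycline against 264 and 273 CPM untreated. DESeq2 gave a difference of 0.20 with an adjusted p of 0.059 and called Chd4 in its place (0.18, adjusted p = 0.028), and limma on TPM one of 0.07 with an adjusted p of 0.71. The genes within 2.5 Mb of Gatad2a had a median log2 change in KO over WT of -0.50 with doxycycline and -0.36 untreated, and their part in this value was not tested.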

How the results depend on the processing

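Of 595 alternative values for 48 called subunit results, 548 kept their direction and side of the threshold, 39 were no longer past it and 8 reversed. For these called results, leaving out a library was scored only where its group was in the contrast. The KO to WT calls of Mbd3, Gatad2a and Hdac2 in each condition were kept in every alternative scored. All 8 reversals came from limma on TPM: Rbbp4 with doxycycline in KO cells (0.10), and with retinoic acid Hdac1 (0.17 in KO cells, 0.13 in WT cells), Rbbp4 (0.28 in KO cells, 0.051 in WT cells), Gatad2b (0.043 in KO cells, 0.19 in WT cells) and Mta3 in WT cells (0.23). On that scale the median of all genes was 0.42 in KO and 0.43 in WT cells. There 4 subunits were called with retinoic acid in WT cells in place of 9: Mbd3 lower, and Mta1, Mta3 and Chd4 higher. In KO cells 8 were called on that scale, as in the counts, but not the same 8. Mta1 stayed higher there, and Mbd3, Gatad2a and Mta2 stayed lower. Hdac1 and Rbbp4 were called higher in place of lower. Mta3 and Chd4, not called in the counts, were called higher, and Hdac2 and Gatad2b were not called. With RLE or upper-quartile scaling 5 subunits were called in KO against WT with retinoic acid in place of 3, Mta1 and Rbbp4 (both higher) being added; DESeq2 and limma on TPM each called 4, adding Rbbp4. For the difference between doxycycline responses, 2 were called with RLE and 2 with upper-quartile scaling (Gatad2a and Chd4), 1 with DESeq2 (Chd4 and not Gatad2a), and 0 with no filter, with the replicate block, without the retinoic acid libraries and with limma on TPM, in place of 1. Chd4 over the mean of 3 conditions was not called with upper-quartile scaling (-0.05) or on TPM (-0.06). The cause was not tested in any of these.

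With 1 library left out, the subunits called numbered 3 to 5 for KO against WT in each of the 3 conditions, 5 to 7 for their mean, 6 to 8 in KO cells and 6 to 7 in WT cells with doxycycline, 8 to 8 in KO cells and 8 to 9 in WT cells with retinoic acid, and 0 to 1 and 0 to 0 for the differences between the responses to doxycycline and retinoic acid. The lone library was assumed to vary like the other groups. Replicate numbers did not pair the libraries: deviations of same-numbered libraries correlated at -0.41 to 0.22 between groups (median 0.03, 3 of 15 pairs over 0.1). The replicate block ended 1 call, Gatad2a in the difference between doxycycline responses (0.19, edgeR adjusted p = 0.056). Leaving out chromosome 1 genes ended no call among the 48. For results not called, every left-out library was counted, also those outside the contrast. Of the 52 subunit results not called, 19 passed in at least 1 alternative, 17 of them in one other than leaving out a library. These include Hdac1 over the mean of the 3 conditions (-0.07, edgeR adjusted p = 0.060), which was called with the replicate block, with no filter and without chromosome 1 genes (-0.09 to -0.07). The lowest count of a subunit in any library was 586, and the SE of a subunit change between 2 groups was 0.045 to 0.072.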
